A study of Arabidopsis thaliana with 9 samples.

Results

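Sulfate is the main form in which plants take up sulfur. Here 10 genes of its uptake and reduction in Arabidopsis thaliana seedlings are described in wild-type Col-0 and in the mutants cyp71-3 and se-1. They were chosen by gene identifier from the 32823 genes in the files, and comprise 4 genes whose mRNAs carry a target site of microRNA miR395 (APS1, APS3, APS4 and SULTR2;1), 3 reductase genes (APR1, APR2 and APR3), the transporter gene SULTR1;2 and 2 genes used as markers of low sulfur (SDI1 and LSU1). All 10 had a mean FPKM (fragments per transcript length and library total) of at least 1 over the libraries and were tested. APR2 had the highest mean over all libraries, 438 FPKM, and APS3 the lowest, 20.0 FPKM.

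Seedlings of each genotype were grown to the age of 2 weeks with 16 h of light at 22 °C and 8 h of dark at 18 °C, and mRNA was captured on beads and sequenced, with 3 libraries for each of the 3 genotypes. No treatment or transgene is named, and the labels do not give the sulfur supply. SE (SERRATE) is needed for the processing of microRNA precursors, and CYP71 is a cyclophilin of the nucleus that carries WD40 repeats. The design text asks how loss of CYP71 affects the targets of microRNAs, and names small RNA sequencing and a second allele, cyp71-2, which are not analysed here.

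In plants, sulfate enters root cells through transporters of the SULTR family and is activated by ATP sulfurylase (APS) to adenosine phosphosulfate. APS reductase (APR) turns this into sulfite, sulfite reductase (SIR) makes sulfide, and sulfide is built into cysteine. When sulfur is short, miR395 accumulates and guides cleavage of the mRNAs of several ATP sulfurylases and of SULTR2;1, a transporter of the vascular tissue.

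The 4 targets were grouped beforehand, and the mature miR395 sequences are given here for comparison with their sites. Both forms are 21 bases long, share the seed printed in capitals (bases 2 to 8, counted from the 5′ end) and come from 6 genes on chromosome 1, read here from the RefSeq annotation of TAIR10.1.
miR395 of MIR395a (chr1:9363206-9363226, minus strand), MIR395d (chr1:26269989-26270009, minus) and MIR395e (chr1:26272786-26272806, minus): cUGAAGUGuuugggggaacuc
miR395 of MIR395b (chr1:9364540-9364560, plus), MIR395c (chr1:9367149-9367169, plus) and MIR395f (chr1:26273939-26273959, plus): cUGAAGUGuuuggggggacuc
Each of the 4 target genes has its best-paired site in the coding sequence, in exon 1, printed 5′ to 3′ on the mRNA strand with the bases opposite the seed in capitals.
APS4 (chr5:17591121-17591141, minus): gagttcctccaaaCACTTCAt
APS1 (chr3:8113164-8113184, plus): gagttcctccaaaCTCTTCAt
APS3 (chr4:8414958-8414978, minus): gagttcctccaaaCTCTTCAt
SULTR2;1 (chr5:3193268-3193288, plus): aagttctcccaaaCACTTCAa
APS1 and APS3 carry the same 21 bases. Each site was scored with a penalty of 1 for a mismatch and 0.5 for a G:U pair. The APS4 site had a penalty of 1.5 (1 mismatch and 1 G:U pair), and the other 3 sites had 2.5 (2 mismatches and 1 G:U pair each). APS1 and APS3 share a position within the seed that is not paired, while the capitals of APS4 and SULTR2;1 pair in full. Of 27440 genes scanned, 2 reached a penalty of 1.5 or less and 9 reached 2.5 or less. Outside the group these were AT2G28780 (1.5), AT1G50930 and AT5G13630 (2.0 each), and AT3G09220 and AT4G23840 (2.5 each). The scan thus does not single out the 4 targets. Among the members outside the target group the lowest penalty was 6.0, in SULTR1;2, and APS2, the ATP sulfurylase gene that is not a target, had 6.5. A match of letters is not evidence of cleavage.

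All 6 MIR395 genes are listed at 0 FPKM in each of the 9 libraries, so neither miR395 nor its precursors can be followed in these mRNA values. The sum over all genes was 825338 to 937136 FPKM per library. By an indirect estimate, the commonest ratio of low values to those of Col-0 replicate 1, the deepest library had 1.59 times the depth of the shallowest. Libraries of a genotype correlated across genes at 0.982 to 0.990, and libraries of different genotypes at 0.931 to 0.963. CYP71 stood at 17.9 ± 1.13 FPKM (SD, n = 3) in Col-0 and 4.09 ± 0.36 in cyp71-3, which was 4.37-fold lower (-1.89 ± 0.07 on the log2 scale, limma adjusted p = 1.63e-09). SE stood at 31.7 ± 1.4 FPKM in Col-0 and 27.2 ± 1.7 in se-1, a change of -0.21 ± 0.05 on the log2 scale (limma, Benjamini-Hochberg adjusted p = 0.0052). The labels do not say where either lesion lies, so the SE mRNA does not check the se-1 label. Nor is it given whether the 3 libraries of a genotype were grown apart from each other. The spread behind each p-value is that of these libraries and may be technical.

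Fold changes below are differences of log2(FPKM + 1) with their standard errors, which understate changes of low genes. A gene was called when its adjusted p, from one limma model over 19180 genes and 9 libraries, was under 0.05. Both mutants were compared with the same 3 Col-0 libraries, so their changes from Col-0 are not independent of each other.

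In cyp71-3 the reductase genes and APS1 fell, while the low-sulfur markers SDI1 and LSU1 rose. In se-1 the same markers rose further, to over 4 times the Col-0 level, and APS3, APR1, APR3 and SULTR1;2 rose to between 1.14 and 1.48 times it. Between the mutants, each of the 10 genes was lower in cyp71-3. Against Col-0, 2 members were called higher and 4 lower in cyp71-3, where 63.3% of all genes tested were called, 30.6% higher and 32.7% lower. In se-1, 6 were called higher and 0 lower by limma, where 50.2% of all genes were called, 25.1% in each direction. At an unadjusted p under 0.05, limma gave 1 lower member in se-1, APR2. In cyp71-3 against se-1, 10 of 10 were called lower, against 62.2% of all genes called, 30.0% higher and 32.2% lower. With quantile normalization 8 of 10 were, without APS4 and SULTR2;1. The members were chosen with earlier results of these data known, and several belong to the same gene families. Setting their counts beside all genes is therefore a description and not a test. The median change of the members was -0.10 in cyp71-3, 0.26 in se-1 and -0.62 between the mutants on the log2 scale, against -0.01, 0.00 and -0.00 over all genes tested.

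**Figure D1:**
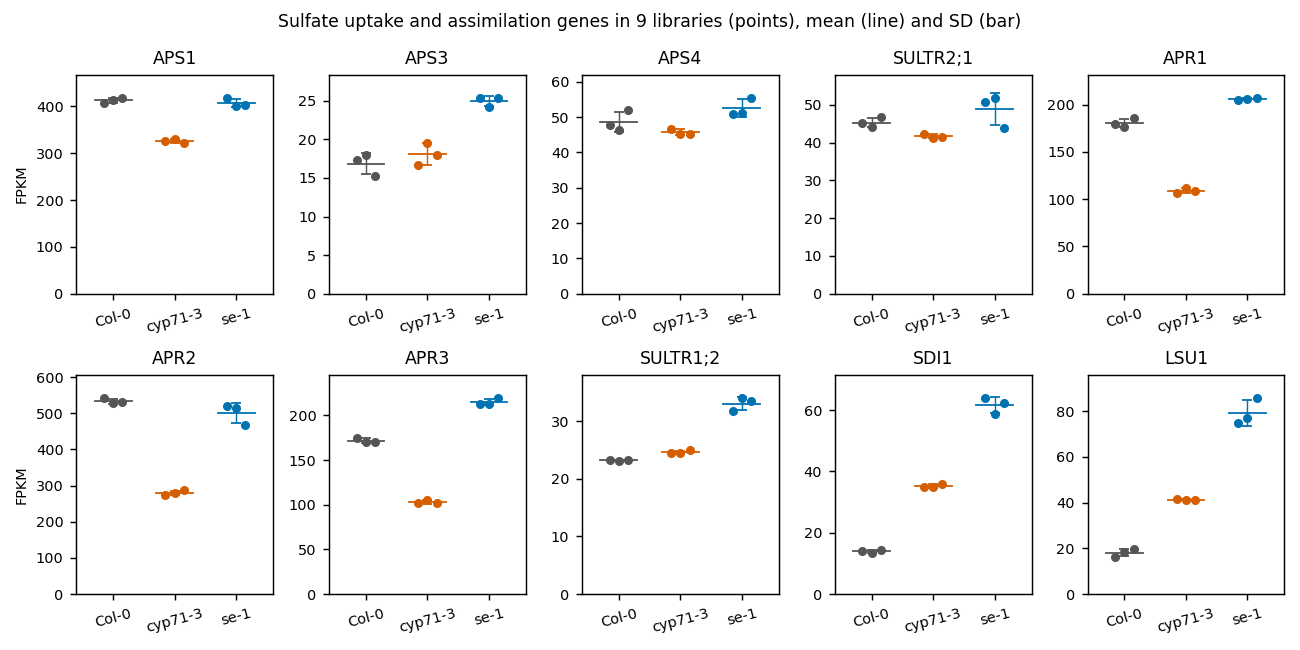
FPKM (y axis, from 0) of the 10 genes in Col-0, cyp71-3 and se-1 (x axis), with a point for each library, a line at the mean of 3 and a bar of 1 SD. The 3 reductase genes and APS1 are low in cyp71-3, with APR2 at 280 FPKM against 534 in Col-0, whereas SDI1 and LSU1 climb from Col-0 through cyp71-3 to se-1, where they reach 61.6 and 79.2 FPKM.

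**Figure D2:**
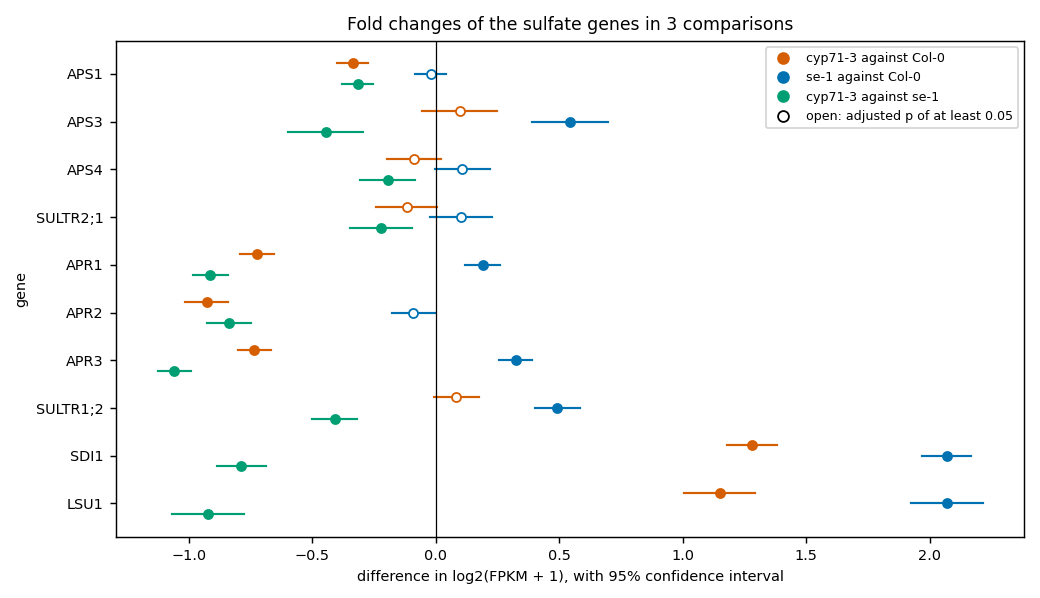
Difference in log2(FPKM + 1) (x axis) with its 95% confidence interval for each gene (y axis) in the 3 comparisons, with filled points for an adjusted p under 0.05. SDI1 and LSU1 lie to the right of 0 in both mutants against Col-0, the 3 reductase genes lie to the left in cyp71-3, and all 10 points of cyp71-3 against se-1 are filled and to the left, 2 of which (APS4 and SULTR2;1) were not called with quantile normalization.

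Of the 4 miR395 targets, 1 fell in cyp71-3 against Col-0 (APS1) and 3 were not called. In se-1, 1 rose (APS3) and 3 were not called. Among all genes tested, 63.3% were called in cyp71-3, 50.2% in se-1 and 62.2% between the mutants. Every cyp71-3 library lay below every se-1 library for all 4, and the share of all genes separated in this way was not computed. Set against each other by limma, the mutants differed in all 4. These differences were -0.32 ± 0.03 for APS1, -0.45 ± 0.07 for APS3, -0.20 ± 0.05 for APS4 and -0.22 ± 0.06 for SULTR2;1 (limma adjusted p = 2.72e-06, 0.000184, 0.00539 and 0.00553), and the last 2 were not called with quantile normalization (adjusted p = 0.0707 and 0.0622).

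APS1 (AT3G22890, chr3:8112614-8115024) encodes a plastid ATP sulfurylase and was the most abundant of the family. Its values were 408, 413 and 418 FPKM in Col-0, against 326, 331 and 323 in cyp71-3 and 417, 400 and 403 in se-1. The cyp71-3 libraries lay below all others, and those of Col-0 and se-1 overlapped. The mean fell from 413 ± 5.0 to 326 ± 4.2 FPKM in cyp71-3, a change of -0.34 ± 0.03 (limma adjusted p = 1.48e-06). In se-1 the change was -0.02 ± 0.03, with a 95% interval from -0.08 to 0.04 (adjusted p = 0.572).

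APS3 (AT4G14680, chr4:8413263-8415650), with the same target site as APS1, had a different order. It stood at 17.4, 17.9 and 15.3 FPKM in Col-0, against 16.7, 19.6 and 18.0 in cyp71-3 and 25.4, 24.2 and 25.4 in se-1. The se-1 libraries lay above all others, while Col-0 and cyp71-3 overlapped. APS3 rose 1.48-fold in se-1, by 0.54 ± 0.07 (limma adjusted p = 6.22e-05). In cyp71-3 the change was 0.10 ± 0.07, with an interval from -0.06 to 0.25 (adjusted p = 0.243).

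APS4 (AT5G43780, chr5:17589394-17591737), whose site paired best, varied little. It stood at 47.6, 46.4 and 52.0 FPKM in Col-0, against 46.6, 45.2 and 45.2 in cyp71-3 and 50.9, 51.1 and 55.4 in se-1. Col-0 overlapped with both mutants, and the mutants did not overlap with each other. Its change was -0.09 ± 0.05 in cyp71-3 (interval -0.20 to 0.02, limma adjusted p = 0.145) and 0.11 ± 0.05 in se-1 (interval -0.00 to 0.22, adjusted p = 0.0971). Without Col-0 replicate 3, the highest of its group, the rise in se-1 was called (0.15, adjusted p = 0.0278).

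SULTR2;1 (AT5G10180, chr5:3193017-3197136), a low-affinity transporter that moves sulfate in the vascular tissue, stood at 45.1, 44.1 and 46.7 FPKM in Col-0. It stood at 42.3, 41.3 and 41.4 in cyp71-3, and at 50.7, 51.8 and 44.0 in se-1. All cyp71-3 libraries were below those of Col-0, but the difference of -0.12 ± 0.06 was not called (limma adjusted p = 0.0903). In se-1, replicate 3 lay beneath the Col-0 libraries and the other 2 lay above them, and the change was 0.10 ± 0.06 (adjusted p = 0.156). Without se-1 replicate 3 both calls changed, since the gene was then called higher in se-1 (0.17, adjusted p = 0.00412) and lower in cyp71-3 (-0.12, adjusted p = 0.0117), the latter through the spread that all genotypes share.

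The reductase genes gave the largest falls among the members in cyp71-3. APR is regarded as the enzyme that exerts most control over the flux of sulfate reduction, and its genes are known to rise when sulfur is short.

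APR2 (AT1G62180, chr1:22975530-22977885), which encodes the major isoform in Arabidopsis, stood at 541, 528 and 531 FPKM in Col-0. It stood at 274, 279 and 286 in cyp71-3 and at 520, 515 and 469 in se-1. The cyp71-3 libraries lay far below the others, and all se-1 libraries were slightly below Col-0. The mean was 1.91 times higher in Col-0 than in cyp71-3, a change of -0.93 ± 0.04 (limma adjusted p = 5.97e-09). The difference in se-1, -0.09 ± 0.04, was not called (adjusted p = 0.0793), but was without se-1 replicate 1 (-0.12, adjusted p = 0.0304).

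APR1 (AT4G04610, chr4:2324878-2327064) stood at 179, 176 and 185 FPKM in Col-0, against 107, 112 and 108 in cyp71-3 and 205, 206 and 207 in se-1. None of the 3 groups overlapped with another, with cyp71-3 lowest and se-1 highest. It fell by 0.72 ± 0.03 on the log2 scale in cyp71-3 (limma adjusted p = 6.89e-09) and rose by 0.19 ± 0.03 in se-1 (adjusted p = 0.000473).

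APR3 (AT4G21990, chr4:11657008-11659167) had nearly the same levels and the same order as APR1. Its values were 175, 170 and 171 FPKM in Col-0, against 102, 105 and 101 in cyp71-3 and 213, 213 and 219 in se-1. It fell by 0.74 ± 0.03 in cyp71-3 (limma adjusted p = 4.25e-09) and rose by 0.32 ± 0.03 in se-1 (adjusted p = 5.71e-06). Set against each other, the mutants differed by -1.06 ± 0.03 (adjusted p = 2.82e-10), the largest difference between them among the members, with se-1 at 2.09 times the level of cyp71-3.

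Since FPKM is per length, the genes of a family can be summed within a library. How fragments shared by similar copies were divided among genes is not given in the sources used here, and a sum depends on it less than a single gene does. The summed level of the 3 APR genes was 886 ± 10.5 FPKM in Col-0, against 492 ± 7.4 in cyp71-3 and 922 ± 23.5 in se-1. Every cyp71-3 library was below every Col-0 library (two-sided exact permutation p = 0.1, the smallest that 3 against 3 can give), and se-1 and Col-0 overlapped (exact p = 0.2).

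The makeup of the APR sum also differed. APR2 gave 60.2 ± 0.34% of it in Col-0, against 57.0 ± 0.74% in cyp71-3 and 54.3 ± 1.68% in se-1, with no overlap between any of the groups. APR3 gave 19.4 ± 0.14%, 20.9 ± 0.40% and 23.3 ± 0.99% in the same order. For both shares the exact permutation p was 0.1 in each of the 3 comparisons.

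The sum of the 4 ATP sulfurylase genes, APS2 included, was 575 ± 6.9 FPKM in Col-0, against 479 ± 6.7 in cyp71-3 and 578 ± 10.9 in se-1. The cyp71-3 libraries were below the others (exact permutation p = 0.1), and Col-0 and se-1 overlapped (exact p = 0.8). APS1 gave 71.8 ± 0.17% of the sum in Col-0, against 68.2 ± 0.09% in cyp71-3 and 70.4 ± 0.27% in se-1. The 3 genes with a miR395 site thus included the most and the least abundant of the family, since APS3 gave 2.93 ± 0.26%, 3.77 ± 0.27% and 4.32 ± 0.09%. APS2 itself fell slightly in cyp71-3, from 96.6 to 88.8 FPKM (-0.12 ± 0.04, limma adjusted p = 0.0158). That call was lost without Col-0 replicate 2 (adjusted p = 0.0649), without cyp71-3 replicate 3 (0.063) and with quantile normalization (0.74). APS2 was not called in se-1 (-0.04 ± 0.04, adjusted p = 0.35).

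**Figure D3:**
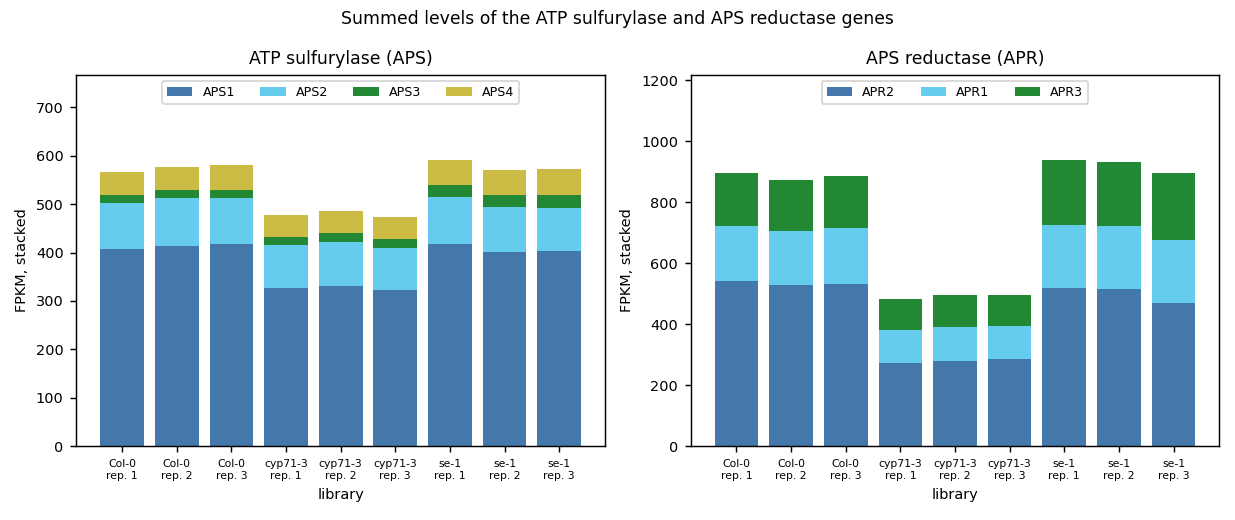
FPKM (y axis, from 0) of the 4 ATP sulfurylase genes (left) and the 3 APS reductase genes (right), stacked for each of the 9 libraries (x axis). The reductase stack is 492 FPKM on average in cyp71-3 against 886 in Col-0 and 922 in se-1, and the sulfurylase stack 479 against 575 and 578.

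SULTR1;2 (AT1G78000, chr1:29327515-29333220) encodes the main high-affinity transporter for sulfate uptake by roots. It stood at 23.2, 23.1 and 23.4 FPKM in Col-0, against 24.5, 24.6 and 25.0 in cyp71-3 and 31.8, 34.0 and 33.5 in se-1. The groups did not overlap, and the step from Col-0 to cyp71-3 was small, 0.08 ± 0.04, and not called (interval -0.01 to 0.17, limma adjusted p = 0.0989). Quantile normalization gave 0.13 for it, which was called (adjusted p = 0.0124). In se-1 the gene rose by 0.49 ± 0.04 (adjusted p = 2.26e-06), to 1.43 times Col-0.

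Whole seedlings hold several organs, and in such bulk samples fewer cells of a type and less RNA per cell cannot be told apart. All 14 root markers examined were above 0 in every library. Their summed level was 977 to 1004 FPKM in Col-0, 728 to 739 in cyp71-3 and 750 to 765 in se-1, most of it from PYK10. By number, 4 were called higher and 5 lower in cyp71-3, and 7 higher and 3 lower in se-1. Over all genes tested, 30.6% were called higher and 32.7% lower in cyp71-3, and 25.1% in each direction in se-1. The summed level of 8 green leaf markers was 40885 to 41978 FPKM in Col-0, 33146 to 33729 in cyp71-3 and 34333 to 38097 in se-1, with 6 and 7 of the 8 called lower in cyp71-3 and se-1, and 0 higher by limma at an adjusted or an unadjusted p under 0.05. The part of organ proportions in the changes of the sulfate genes was not tested.

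Among the members, the low-sulfur markers moved most against Col-0. SDI1 (AT5G48850, chr5:19805437-19807853), named for its induction by sulfur deficiency and known to repress glucosinolate synthesis, stood at 14.0, 13.4 and 14.4 FPKM in Col-0. It stood at 34.8, 34.9 and 36.0 in cyp71-3 and at 63.9, 58.7 and 62.2 in se-1. The groups were far apart, in the order Col-0, cyp71-3, se-1. SDI1 rose 2.53-fold in cyp71-3 (1.28 ± 0.05, limma adjusted p = 1.32e-09) and 4.42-fold in se-1 (2.07 ± 0.05, adjusted p = 1.44e-10). The difference between the mutants, -0.79 ± 0.05, was itself called (adjusted p = 5.90e-08).

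LSU1 (AT3G49580, chr3:18374908-18375940), a small protein of the family named for response to low sulfur, followed the same order. Its values were 16.3, 18.6 and 19.5 FPKM in Col-0, against 41.6, 41.0 and 41.2 in cyp71-3 and 74.8, 77.2 and 85.6 in se-1. Again no libraries of different genotypes overlapped. It rose 2.28-fold in cyp71-3 (1.15 ± 0.07, limma adjusted p = 5.50e-08) and 4.37-fold in se-1 (2.07 ± 0.07, adjusted p = 1.66e-09), and the mutants differed by -0.92 ± 0.07 (adjusted p = 3.45e-07).

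The 250 bases before the annotated start of each gene were searched for GAGAC, the core of a sulfur-responsive element, on both strands (GTCTC on the other). It was found in 1 of 10 members, SDI1, and in 25.8% of 27443 promoters of the same length. Of the further low-sulfur markers described below, LSU4, BGLU28 and GGCT2;1 held it, and LSU2, LSU3 and SHM7 did not. The other sulfate transporters and the genes of sulfate activation did not hold it either. Bases farther upstream were not searched. CACGTG, the G-box bound by HY5 and other factors, reads the same on both strands. It was found in 0 of 10 members and in 6.49% of promoters. Of the other sulfur genes searched, LSU3 alone held it.

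Another 34 sulfur genes were listed by role, of which 33 were tested. In cyp71-3, 11 rose, 13 fell and 9 were not called. In se-1, 15 rose, 5 fell and 13 were not called. Between the mutants, 9 were higher and 16 lower in cyp71-3. The medians were -0.07, 0.15 and -0.15 on the log2 scale. Of all genes tested, 30.6% were called higher and 32.7% lower in cyp71-3, and 25.1% in each direction in se-1. Between the mutants, 30.0% of all genes were higher and 32.2% lower in cyp71-3. The counts by role that follow are to be read beside these shares.

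Among the other sulfate transporters, 5 of 9 tested rose and 3 fell in cyp71-3, and 5 rose and 0 fell in se-1 by limma at an adjusted or an unadjusted p under 0.05. The vacuolar exporter gene SULTR4;2 stood at 3.52 ± 0.24 FPKM in Col-0, against 15.6 ± 0.72 in cyp71-3 and 7.20 ± 0.27 in se-1, and rose by 1.88 ± 0.07 and 0.86 ± 0.07 (limma adjusted p = 1.39e-09 and 1.35e-06). Its partner SULTR4;1 rose in se-1 alone among the calls, by 0.62 ± 0.06, with 0.05 ± 0.06 in cyp71-3, and the mutants differed by -0.57 (adjusted p = 8.34e-06). SULTR3;4, a family member also known to distribute phosphate, rose in both, by 1.19 ± 0.09 and 0.54 ± 0.09.

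SULTR1;3, a transporter of the phloem, and SULTR3;2 rose from under 1 FPKM on average in Col-0 to 4.08 ± 0.17 and 5.88 ± 0.16 FPKM in cyp71-3, by 2.02 ± 0.12 and 1.92 ± 0.14 (limma adjusted p = 6.1e-08 and 4.46e-07). In se-1 their means were 0.487 and 0.767 FPKM, and neither was called. With no filter on low values, SULTR1;3 was called higher in se-1 (0.25, adjusted p = 0.0379). SULTR3;5, which in roots works together with the product of the miR395 target SULTR2;1, fell by 0.81 ± 0.08 in cyp71-3, from 6.49 to 3.26 FPKM, and stood at 6.36 in se-1. SULTR3;3 fell by 0.18 in cyp71-3 and rose by 0.39 in se-1. SULTR1;1, the inducible partner of SULTR1;2 in root uptake, had 0.943 ± 0.10, 0.68 ± 0.08 and 0.61 ± 0.10 FPKM in Col-0, cyp71-3 and se-1, under the mean of 1 needed for a test.

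Of 6 genes of sulfate activation, sulfite reduction and APS kinases, 2 fell in cyp71-3, and 1 rose and 1 fell in se-1. SIR, the single sulfite reductase gene, which acts directly after APR, stood at 140, 133 and 155 FPKM in Col-0, cyp71-3 and se-1. Its change was -0.07 ± 0.04 in cyp71-3 (limma adjusted p = 0.107) and 0.15 ± 0.04 in se-1 (adjusted p = 0.0057). Of 10 genes of cysteine and glutathione synthesis, 4 rose and 4 fell in cyp71-3, and 4 rose and 3 fell in se-1. The serine acetyltransferase gene SERAT2;1 fell in both, by 0.51 ± 0.06 and 0.27 ± 0.06, and SERAT3;2 rose in se-1 by 0.57 ± 0.09.

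Of 6 further genes listed as markers of sulfur starvation, 2 rose and 2 fell in cyp71-3, and 5 rose and 1 fell in se-1. BGLU28, a glucosidase thought to release sulfur from glucosinolates, stood at 0.62 ± 0.15 FPKM in Col-0, against 10.8 ± 0.47 in cyp71-3 and 3.23 ± 0.39 in se-1 (2.87 ± 0.10 and 1.38 ± 0.10, limma adjusted p = 1.34e-09 and 8.12e-07). GGCT2;1, which breaks down glutathione, rose in both, by 1.24 ± 0.06 and 1.28 ± 0.06, and the interval of the difference between the mutants ran from -0.18 to 0.11. SHM7 fell by 0.73 ± 0.05 in cyp71-3 and rose by 0.52 ± 0.05 in se-1.

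The close relatives of LSU1 did not share its order. LSU2 fell in cyp71-3 from 80.4 ± 4.8 to 49.9 ± 1.4 FPKM (-0.67 ± 0.05, limma adjusted p = 3.73e-07) and rose in se-1 to 113 ± 5.1. LSU3 stood at 18.9 ± 4.5 FPKM in Col-0, against 17.3 ± 1.7 in cyp71-3 and 58.9 ± 2.1 in se-1, a rise of 1.62 ± 0.13 in se-1 (adjusted p = 2.11e-06). LSU4 fell in se-1 by 0.75 ± 0.17 (adjusted p = 0.00309). Thus SDI1 and LSU1 rose in both mutants, and of their 6 counted companions 2 did so, BGLU28 and GGCT2;1. The share of all genes called higher in both mutants was not computed. Singly, 30.6% were called higher in cyp71-3 and 25.1% in se-1. AT1G04770, listed with the 6 companions as SDI2 but left out of the counts, changed by -1.60 ± 0.05 in cyp71-3 and 0.22 ± 0.05 in se-1.

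The 2 regulators listed, EIL3 (SLIM1, the transcription factor of the sulfur starvation response) and HY5, both fell in cyp71-3, and neither was called in se-1. EIL3 stood at 16.2, 13.5 and 16.2 FPKM in Col-0, cyp71-3 and se-1, with a change of -0.25 ± 0.05 in cyp71-3 (limma adjusted p = 0.00138).

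**Figure D4:**
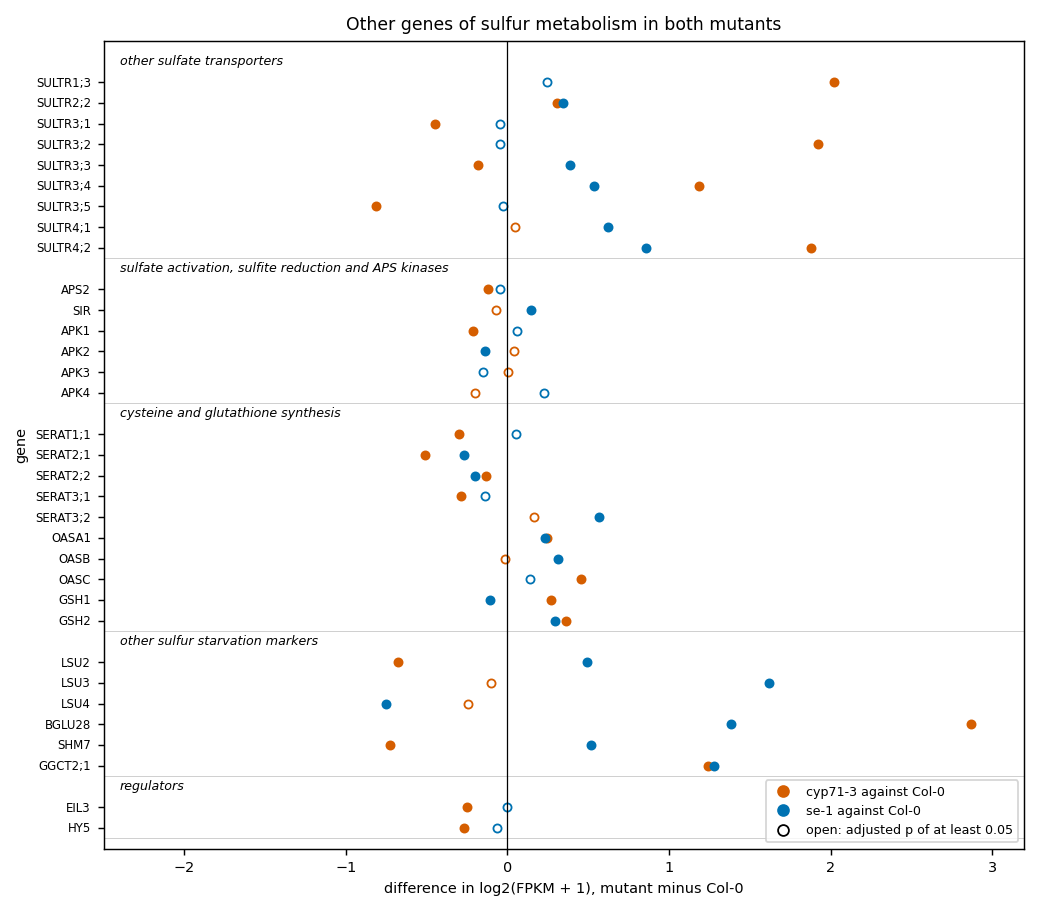
Difference in log2(FPKM + 1) from Col-0 (x axis) of 33 other sulfur genes (y axis), grouped by role, in cyp71-3 and se-1, with filled points for an adjusted p under 0.05. BGLU28 is farthest to the right in cyp71-3, at 2.87, and LSU2 and SHM7 lie on opposite sides of 0 in the 2 mutants. Genes of cysteine and glutathione synthesis lie between -0.51 (SERAT2;1 in cyp71-3) and 0.57 (SERAT3;2 in se-1). AT1G04770 is not drawn.

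Against Col-0, 4 members were called in both mutants, and the share of all genes so called was not computed. For these 4, the genes of most like pattern were sought among all others tested. They were ranked by the root mean square difference of log2(FPKM + 1), centred on each gene's mean, over the 9 libraries. For APR1 they were AT1G31710, BCCP2 and SNG1, with differences of 0.0364, 0.043 and 0.0449. For APR3 they were bZIP2, SUC1 and J8, with 0.0374, 0.0385 and 0.0403. EXL5 came first for both SDI1 (0.0926) and LSU1 (0.0583), and AT4G33070 second for both (0.097 and 0.122). The third was AT4G36850 for SDI1 (0.0999) and AT3G13175 for LSU1 (0.142). These are descriptions of likeness in 9 libraries that fall into 3 genotypes.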

How the data were processed

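The deposited values are FPKM per gene, with 2 decimals in 1 table per library. The build TAIR10 and the tools Cuffdiff, Cuffnorm, STAR 2.7.2b and Trim Galore 0.6.7 are named per the submitters' processing notes. What each did, which annotation was used, whether strand was kept and how libraries were scaled is not given in the sources used here. As FPKM is relative to a scale set for each library, a change in abundant genes can shift the others.

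The 9 libraries were grouped by the genotype in the labels. log2(FPKM + 1) of 19180 genes with a mean FPKM of at least 1 was fitted with limma 3.58.1 in R 4.3.3 (3 genotypes, 6 residual degrees of freedom, moderated variance with an intensity trend), and Benjamini-Hochberg adjusted p-values, two-sided and over all genes tested, were called under 0.05. The procedure was tested on simulated data. Family sums were compared by exact permutation. Genes outside the 10 were named if listed and called with an absolute log2 change of at least 0.5 in any comparison, with SIR, SULTR1;1, EIL3 and the MIR395 genes in any case, and APS2, HY5 and organ markers outside this rule. The members and lists were chosen with earlier results of these data known. A listed gene was left out when its symbol was not in the TAIR10.1 annotation, which matched 32538 of 32823 identifiers. Sites and promoters came from that RefSeq assembly, TAIR10.1, with 1-based coordinates. The alternatives were a pseudocount of 0.1, no filter, quantile normalization, median centring, 2 genotypes only, array weights, a replicate block and leaving out each library. Figures were drawn with matplotlib 3.10.9, and summaries used scipy 1.17.1, numpy 2.4.6 and pandas 2.3.3 under Python 3.11.15.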

Additional observations from a re-analysis of the deposited data

How the results depend on the processing

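Over all alternatives, the fold changes of the members kept direction and call in 467 of 480 values. With 2 genotypes only, the replicate block or a library left out of the genotype not compared, the fold stays the same by construction. Only its call can change there. Family sums and shares were recomputed only by leaving out each library in turn. The difference of the APS sum between se-1 and Col-0 then ran from -3.18 to 7.03 FPKM, and that of the APR1 share between the mutants from -0.443 to 0.208 percentage points, so neither has a settled direction. Quantile normalization reversed 4 small changes that were not called with it: APS4 in cyp71-3 (0.01044), APS1 in se-1 (0.03741), SIR in cyp71-3 (0.05993) and APS2 between the mutants (0.002251). It also ended the calls of APS4 and SULTR2;1 between the mutants (limma adjusted p = 0.0707 and 0.0622). SULTR2;1 in cyp71-3 was called lower with median centring, 2 genotypes only and array weights (adjusted p = 0.048, 0.0127 and 0.0367), and in se-1 higher with array weights (0.0214). With array weights SULTR3;2 (0.06414), SULTR3;5 (0.01217) and EIL3 (0.001386) turned positive in se-1 without a call. With no filter on low values, SULTR1;3 was called higher in se-1 (adjusted p = 0.0379). Leaving out each library in turn, the changes in cyp71-3 ranged from -0.004363 to 0.10 for SULTR4;1 and from -0.29 to 0.04417 for LSU3, and those in se-1 from -0.15 to 0.07797 for SULTR3;2, -0.06991 to 0.02189 for SULTR3;5 and -0.03425 to 0.01455 for EIL3. LSU3 was called lower in cyp71-3 without Col-0 replicate 2 (adjusted p = 0.015). Members called lower in se-1 ranged from 0 to 1, and other listed sulfur genes called lower in se-1 from 3 to 5, the 3 without Col-0 replicate 2. SIR in cyp71-3 was called lower with median centring and 2 genotypes only (adjusted p = 0.0398 and 0.0379). The cause was not tested. Replicate numbers did not pair the libraries: same-number deviations correlated at -0.137 to 0.043, and 1 of 9 libraries correlated best with its own number. With the replicate block, 6, 6 and 10 members were called in cyp71-3, in se-1 and between the mutants, as without it, and 11864, 9238 and 11572 of all genes. Depth in fragments is unknown, which limits genes near 1 FPKM such as SULTR1;3 and SULTR3;2.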

Other observations

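The locus AT1G04770 had been listed with the low-sulfur markers as SDI2, a symbol that the annotation does not give. It was left out of the counts. It stood at 80.0, 79.0 and 76.7 FPKM in Col-0, 24.8, 24.3 and 26.7 in cyp71-3, and 95.8, 93.4 and 86.8 in se-1. The cyp71-3 libraries were below all others, and the gene fell by 1.60 ± 0.05 on the log2 scale in cyp71-3 and rose by 0.22 ± 0.05 in se-1 (limma adjusted p = 3.81e-10 and 0.00248).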
